A study of Drosophila melanogaster with 6 samples.

Results

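Binding of the protein Insensitive (Insv) to the X chromosome of cultured fly cells was described from 2490 ChIP-seq peaks. They are all the peaks that the authors' deposited list places on X, among 13016 peaks in all and 12693 on the main chromosome arms. The only criterion was the chromosome name, and neither the strength nor the width of a peak entered the choice. Chromatin of Kc167, a Drosophila melanogaster cell line started from late-stage embryos, labelled as female and of genotype se/e, was fixed with 1.8% formaldehyde and sonicated. Immunoprecipitation used a rabbit polyclonal antiserum to Insv that had been pre-adsorbed with young fly embryos, giving 3 ChIP samples, and 3 samples of input DNA served as controls. All samples share the line and the genotype, and the labels name no treatment. As a model, Kc167 is a single immortal line, so the X described here is that of these cells and not of a tissue. Whether the 3 replicates came from separate cultures is not stated in the labels, and the list holds 1 score per peak for all libraries together.

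Insv carries a BEN domain, a small fold with which a group of nuclear proteins contacts DNA. In flies it is known as a transcriptional corepressor that opposes Notch signalling during development of the nervous system, and it binds DNA directly as well as through partner proteins. The X of the fly has its centromere at the end with the highest coordinates. In males, a dosage compensation complex coats the single X and raises its transcription, while in female cells, such as the source of Kc167, the complex does not assemble on X.

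The peaks on X were compared with those on the autosomal arms 2L (2045 peaks), 3L (2017 peaks) and 3R (3293 peaks). The remaining arms, among them 2R, were not part of the comparison. The list has no column for a single library, depth is unknown, and no input level stands beside a peak. Error between replicates therefore could not be computed. Intervals are at 95% and cover counting error over peaks only (exact Clopper-Pearson for shares, exact Poisson for counts, order statistics for medians). The half-interval of the covered share is the exception and is approximate. Neighbouring peaks can come from the same stretch of chromatin and are not replicates, so the intervals are too narrow, and no p-value is given for a difference between arms. The labels do not say how many copies of X and of the autosomes these cells carry, and the part of copy number in the values below was not tested. No genome of FlyBase release 5, on which the coordinates lie, was used here, so peaks are named by position and not by gene.

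X held a larger share of very wide peaks than arms 2L, 3L and 3R. Peaks over 5000 bp numbered 23 on X (0.924%), 5 on 2L (0.244%), 5 on 3L (0.248%) and 8 on 3R (0.243%). A score above 50 was found for 18.5% of its isolated peaks, against 5.42 to 7.95% on the other arms. For isolated peaks the intervals of X and 2L just overlapped. Both comparisons were chosen after the data had been seen. The median score of X, 16.3, was close to that of 2L, at 16.1, and its spacing was close to that of 3R. Arm 3L had fewer peaks per Mb, with lower scores and longer distances between them.

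X carried 112 peaks per Mb (exact Poisson interval 108 to 116) over the 22.3 Mb from its first peak, which starts at 6635, to its last, which ends at 22257308. The density was 89.4 per Mb on 2L (85.6 to 93.4), 82.9 on 3L (79.3 to 86.6) and 118 on 3R (114 to 122). X thus stood above 2L and 3L and a little below 3R, and the intervals of X and 3R overlapped. Poisson intervals are too narrow here, since the counts in 1 Mb bins of X had a variance 15.5 times their mean. Its peaks covered 2195 kb, or 9.86% of the span, against 9.38% on 3R, 7.01% on 2L and 5.95% on 3L. The order of X and 3R is not firm, since their difference of 0.483 percentage points has a half-interval of 0.503. That half-interval is an approximation from the number of peaks. It leaves out the spread of their widths and is too narrow. Without its densest 1 Mb bin X was at 9.37%, with 3R left whole.

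The number of peaks per complete 1 Mb bin measures how evenly Insv was spread along an arm. On X it was 113 ± 41.9 (SD over 22 bins), with a median of 115.5. The comparison arms had 92.0 ± 58.5 on 2L (22 bins), 84.0 ± 61.7 on 3L (24 bins) and 117 ± 44.0 on 3R (27 bins). The bins of X ran from 37 to 184, against 19 to 221 on 2L, 1 to 239 on 3L and 48 to 208 on 3R. The ratio of variance to mean of the bin counts was 15.5 on X and 16.5 on 3R, and it was 37.2 on 2L and 45.3 on 3L. X and 3R were thus the more evenly filled arms.

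**Figure D1:**
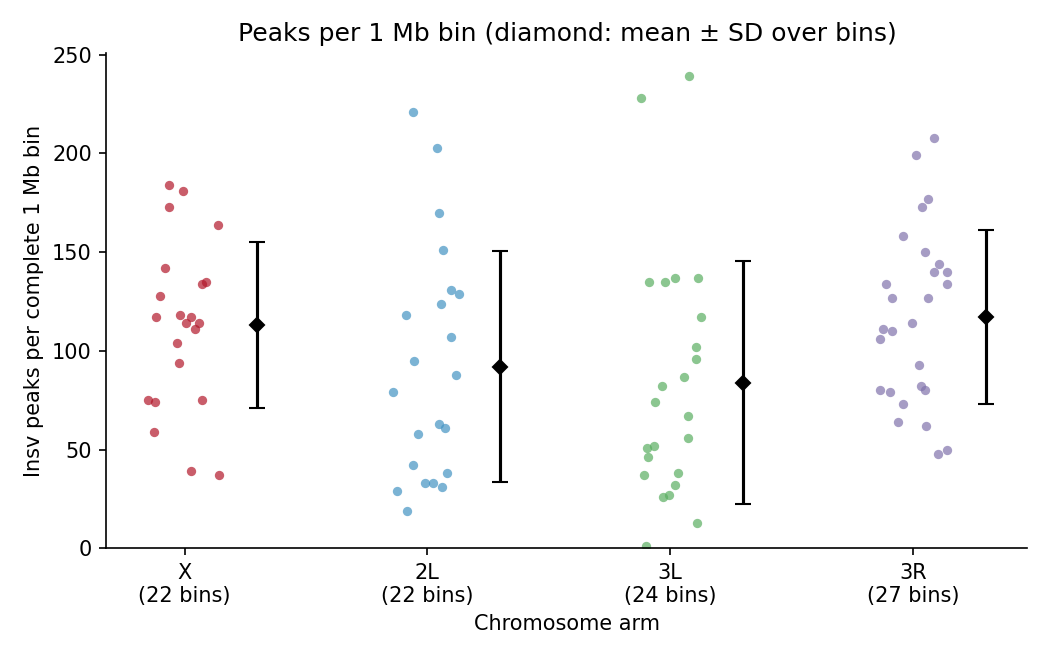
Number of Insv peaks in each complete 1 Mb bin of X, 2L, 3L and 3R (y axis, peaks per bin). Each point is a bin, and the diamond with bars is the mean ± SD over the bins of an arm. The 22 bins of X lie between 37 and 184, within the range of the bins of 3L, from 1 to 239.

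From its tip, X began with 59 peaks in the bin from 0 to 1 Mb, then rose to 142 and 135 in the next bins. A sparse stretch followed, with 39 peaks (28 to 53) from 3 to 4 Mb and 74 from 4 to 5 Mb. Between 5 and 6 Mb there were 118 peaks, and between 6 and 7 Mb 181 (156 to 209), the second highest count of X. From 7 to 14 Mb the counts stayed close together, at 128, 134, 117, 104, 114, 94 and 117. They fell to 75 from 14 to 15 Mb, and the following bins reached 164 (140 to 191) and 173 (148 to 201). The bins from 17 to 19 Mb held 111 and 114. The densest bin of X, from 19 to 20 Mb, contained 184 peaks (158 to 213), which covered 20.5% of it. Towards the centromere the counts dropped to 75 and then 37 (26 to 51) in the last complete bins, and the incomplete bin beyond held 1 peak. The part of read mappability in this drop was not tested.

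Relative to its mean, the median score per bin of X varied less than the number of peaks. It was 16.4 ± 1.90 (SD over 22 bins) and ran from 13.2 from 11 to 12 Mb to 19.98 from 5 to 6 Mb. The strong peaks varied widely between complete bins. The highest score of a bin ran from 49.68 to 466.32, and the number of peaks above 50 from 0 to 14. Across the 22 bins, Spearman's rho between the number of peaks and the median score was 0.066. The median width per bin, at 555 ± 82.0 bp, was higher in bins with more peaks (rho = 0.63). These relations are descriptions, since all bins come from the same libraries and neighbouring bins share domains. The parts of X from 0 to 11 Mb and from 11 to 22 Mb were nearly alike, with 1231 and 1258 peaks, median scores of 16.6 (15.8 to 17.1) and 16.2 (15.5 to 16.9) and median widths of 562 bp (532 to 608) and 549.5 bp (504 to 586). Of the peaks scored above 100, 23 lay in the first part and 14 in the second.

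At a finer scale, 42 of the 222 complete windows of 100 kb on X held no peak (18.9%), while 55 (24.8%) held at least 20. The share of windows with at least 20 peaks was 23.7% on 3R, 14.8% on 2L and 12.3% on 3L. The fullest 22 windows of X held 29.2% of its peaks. A like proportion of windows held 37.1% of the peaks on 2L (22 windows), 38.1% on 3L (24 windows) and 29.8% on 3R (27 windows). The 5 fullest windows of X were those from 19500001 to 19600000 with 50 peaks, from 15600001 to 15700000 with 43, from 6700001 to 6800000 with 41, from 6100001 to 6200000 with 37 and from 5600001 to 5700000 with 36. Their median scores ran from 14.5 to 19.8, around the median of all X peaks, so the fullest windows were not filled with unusually strong peaks.

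Long stretches of X were free of peaks. Gaps over 100 kb numbered 44 and together took up 8.51 Mb, or 38.2% of the span. The same share was 44.9% on 2L, 44.1% on 3L and 33.9% on 3R. The longest on X, of 612 kb, ran from 21261184 to 21872965. It was followed by 441 kb from 11916363 to 12357571, 371 kb from 21886160 to 22257047, 367 kb from 20531780 to 20898833 and 337 kb from 14138111 to 14474699. Thus 3 of the 5 longest lay beyond 20 Mb, towards the centromere, and the other two lay in the middle of the arm.

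The typical peak on X had a score of 16.3 (15.8 to 16.9), on a scale that the authors' peak caller set and that is not stated. Medians were 16.1 on 2L (15.5 to 16.7), 15.0 on 3L (14.5 to 15.4) and 15.5 on 3R (15.3 to 16.1). The interval of X lay above that of 3L and overlapped those of 2L and 3R. The middle of the distribution was close to that of 2L, with quartiles of 11.6 and 25.6 on X and 11.5 and 25.9 on 2L. At the 90th percentile X, at 40.2, was below 2L, at 44.0, and above 3L, at 38.0, and 3R, at 37.5. At the 99th percentile X was the highest, at 118 against 106, 99.1 and 92.5 on 2L, 3L and 3R.

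The order of the arms thus changed along the distribution. Scores above 50 were given to 163 peaks of X, or 6.55% (5.61 to 7.59), against 7.97% on 2L (6.83 to 9.23), 5.50% on 3L (4.55 to 6.59) and 4.56% on 3R (3.87 to 5.32). Scores above 100 were given to 37 peaks of X, or 1.49% (1.05 to 2.04). The shares were 1.08% on 2L (0.675 to 1.62), 0.992% on 3L (0.607 to 1.53) and 0.698% on 3R (0.443 to 1.05). X was the highest at this level, with an interval that overlapped those of 2L and 3L and lay narrowly above that of 3R. Without its 10 strongest peaks, X was at 1.09%, but the other arms kept theirs, so this value does not compare the arms. Above 300 there were 4 peaks on X, 0 on 2L, 1 on 3L and 1 on 3R, too few to separate the arms. Among the peaks of all main arms, those 4 on X ranked 2, 4, 5 and 8 by score. The highest score lay on an arm that was not compared here.

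**Figure D2:**
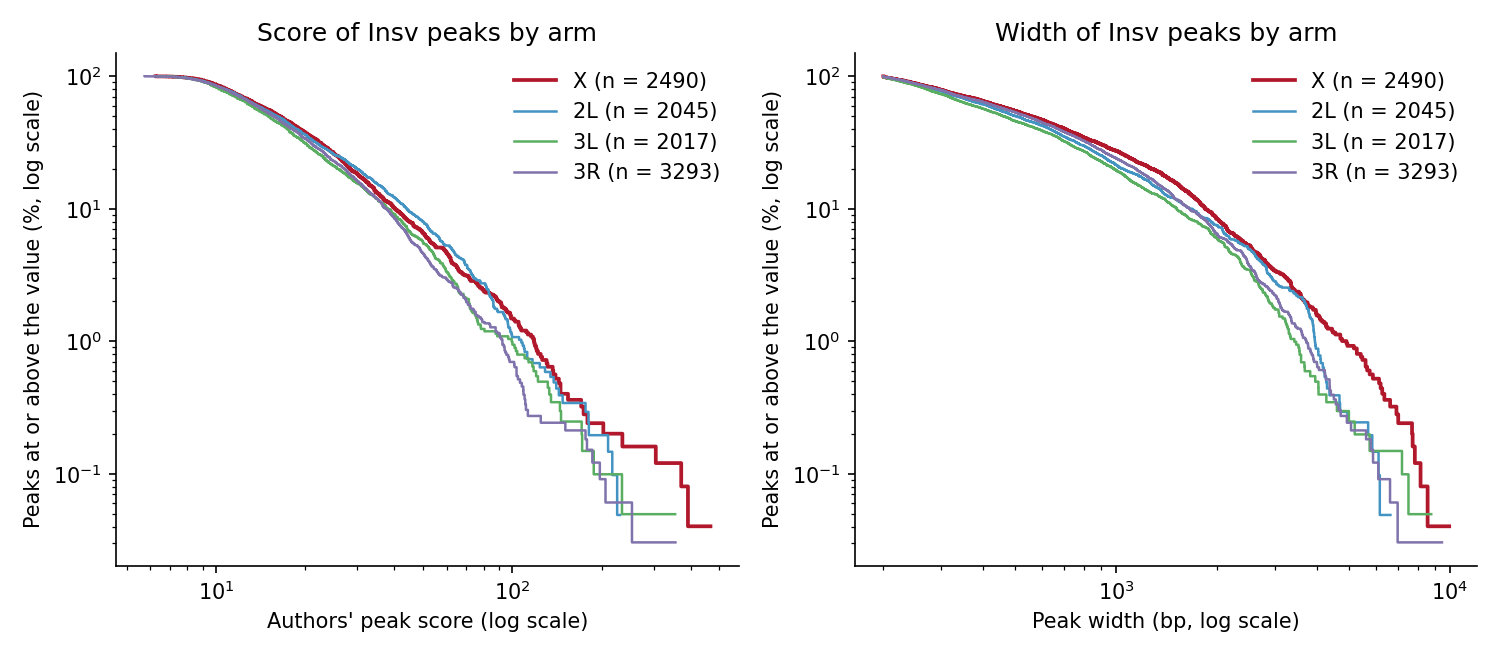
Share of peaks (y axis, percent, log scale) at or above each authors' score (left) or width in bp (right), both x axes on a log scale, for X, 2L, 3L and 3R. The score curves run close together up to about the 90th percentile, and the width curve of X lies above the others at 4000 bp, beyond which X has 39 peaks.

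The 37 peaks with a score above 100 were scattered along X. They lay in 15 of the 1 Mb bins and in 33 different regions, where a region is a run of peaks whose facing edges lie within 5 kb of each other. Bins from 2 to 3 Mb, 9 to 10 Mb and 19 to 20 Mb held 5 each. Among the 37, 7 stood alone and 18 lay in regions of 10 or more peaks. Their median width was 2096 bp, and 6 were no wider than 1000 bp.

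The strongest peak of X, from 6736469 to 6741728, had a score of 466.32 and was 5260 bp wide. It lay in a 68.3 kb region whose median score was 14.5 and whose next highest score was 101.26. Within 40 kb of its centre there were 38 other peaks, most of them low. The peak of rank 2 on X, from 17716360 to 17721766, scored 391.49 over 5407 bp and was isolated, with 32324 bp free ahead of it and 14506 bp behind. Beyond that empty stretch, 13 other peaks lay within 40 kb of its centre, none above 52.21. The peak of rank 3, from 6178608 to 6188553, scored 371.52 and was the widest of X at 9946 bp. It came near the end of a 58.1 kb region, in which the next score was 75.67. The peak of rank 4, from 15350006 to 15358576, scored 304.89 over 8571 bp in a region of 14 peaks, whose next score was 40.22. Ranks 1, 3 and 4 were thus followed in their own regions by peaks of far lower score. The scale of the score is not known, so no ratio is given.

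**Figure D3:**
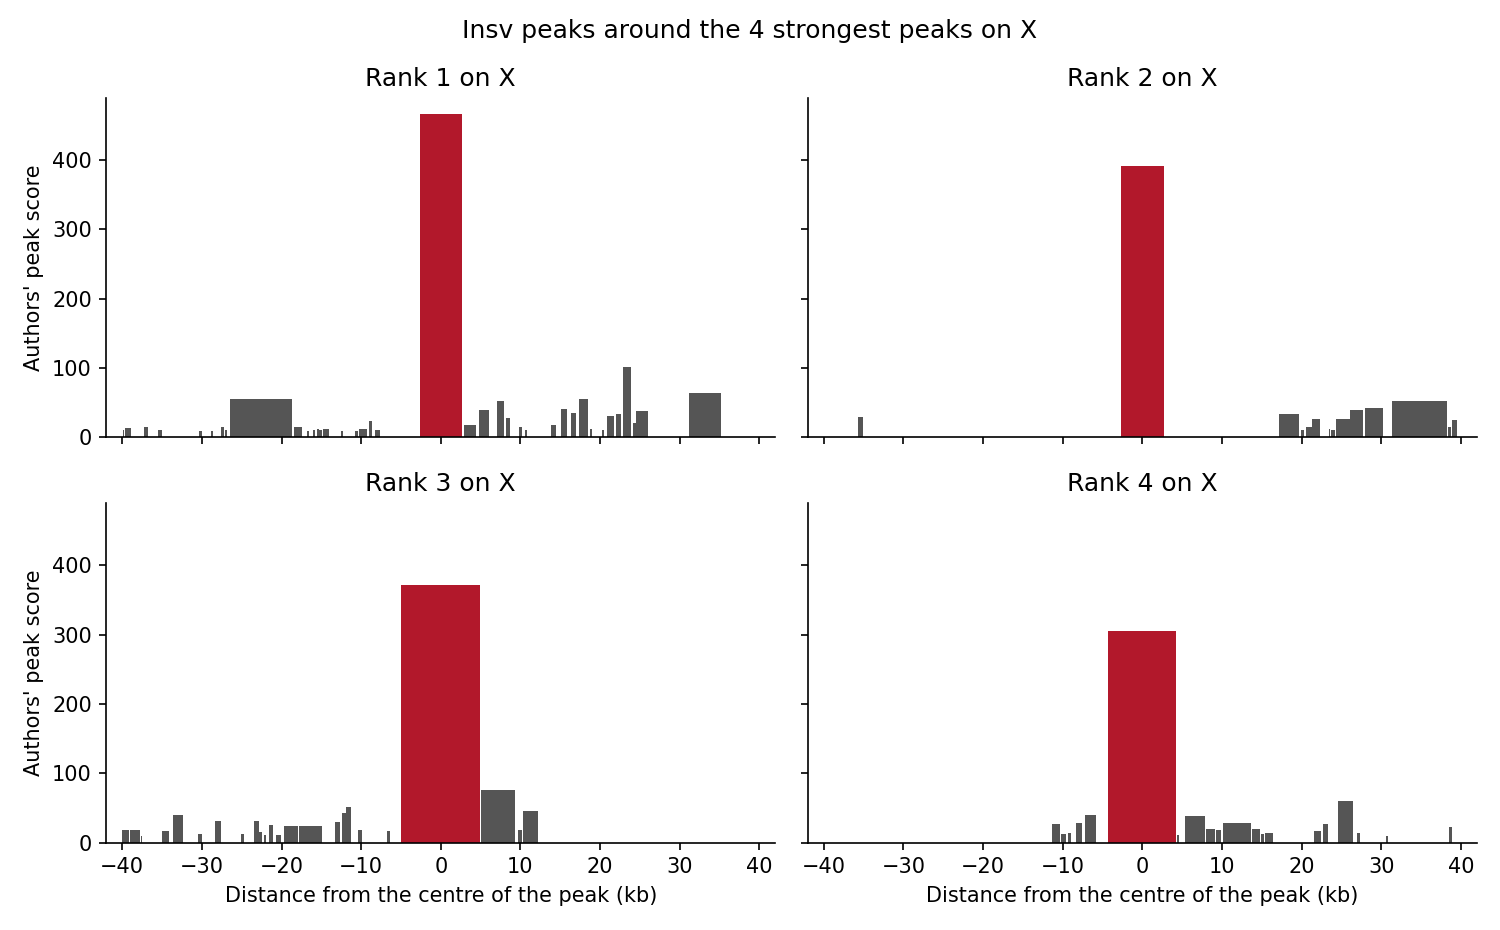
Authors' score (y axis) of every Insv peak within 40 kb of the centre of each of the 4 strongest peaks on X, drawn as bars as wide as the peaks, by distance from the centre in kb (x axis). The central peak is in red and the others in grey. Ranks 1, 3 and 4 stand among many peaks of lower score, and rank 2 stands in an empty stretch with 13 other peaks further out.

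Ranks 5 to 15 on X were narrower, with 1 exception over 5000 bp. Rank 5, from 19047041 to 19049175, scored 235.17 over 2135 bp in a region of 11 peaks. Rank 6, from 1816060 to 1817944, scored 202.81 over 1885 bp in a group of 4. Rank 7, from 9028875 to 9030268, scored 179.23 and lay near the start of a region of 22 peaks. Rank 8, from 19383443 to 19389091, was that exception, with 5649 bp and a score of 173.97. These 4 had between 3 and 21 companions in their regions.

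Rank 9, from 13277300 to 13278824, scored 170.71 and stood alone, 11628 bp from its nearest neighbour. Rank 10, from 11260538 to 11264836, scored 154.09 and closed a region of 20 peaks. Rank 11 was shared by peaks with a score of 145.37, from 2063908 to 2066003 in a region of 17 peaks and from 12609470 to 12611024 in a region of 28. In both of those regions a second peak came close, with scores of 122.06 and 119.09. Rank 13, from 19246967 to 19247910, scored 143.52 although it was only 944 bp wide, and stood alone. Ranks 14 and 15, from 15705621 to 15706808 and from 7862725 to 7863976, scored 139.85 and 137.41 in groups of 4 and 6 peaks. High scores on X were therefore found both in dense regions and at isolated sites.

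Peaks on X were on the wide side. The median width was 556 bp (531 to 586) on X, 502 bp on 2L (478 to 527), 459 bp on 3L (441 to 482) and 539 bp on 3R (516 to 560). The interval of X lay above those of 2L and 3L and overlapped that of 3R. Quartiles on X were 321 and 1071 bp, and the upper quartile was 912 bp on 2L, 843 bp on 3L and 971 bp on 3R. The narrowest peaks were 201 bp on each of the 4 arms. Peaks of at most 300 bp made up 21.1% of X (19.5 to 22.7), 22.8% of 2L, 21.5% of 3R and 26.9% of 3L (24.9 to 28.9).

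The share of wide peaks on X was above that of each other arm at each width compared, and its interval was clear of all 3 only at the largest. Peaks over 2000 bp made up 8.39% of X (7.33 to 9.55), against 7.53% on 2L (6.42 to 8.76), 6.05% on 3L (5.05 to 7.18) and 6.499% on 3R (5.68 to 7.40). Over 4000 bp there were 39 peaks on X, or 1.57% (1.12 to 2.13), against 0.880% on 2L (0.522 to 1.39), 0.496% on 3L (0.238 to 0.910) and 0.668% on 3R (0.419 to 1.01). At this width the interval of X overlapped that of 2L. At 3000 bp, with 3.41% on X (2.74 to 4.204), it overlapped 2L (2.84%, 2.16 to 3.65) and narrowly 3R (2.22%, 1.74 to 2.78). Over 5000 bp there were 23 on X, or 0.924% (0.586 to 1.38), against 5 on 2L (0.244%, 0.0794 to 0.570), 5 on 3L (0.248%, 0.0805 to 0.578) and 8 on 3R (0.243%, 0.105 to 0.478). Only at this width did the interval of X overlap none of the 3. The cut at 5000 bp was chosen after the widths had been seen, and no test of the difference was made.

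The 23 peaks wider than 5000 bp lay in 12 of the 1 Mb bins and in 19 regions. The bin from 19 to 20 Mb held 5 of them and the bin from 6 to 7 Mb held 3. Regions of 10 or more peaks contained 13, and 1 stood alone. Their scores ran from 30.27 to 466.32 with a median of 55.15, and 8 exceeded 100, so a very wide peak was not always a strong one. After the peaks of ranks 3 and 4 by score, the widest were those from 5596926 to 5605088 (8163 bp, score 54.32), from 6712581 to 6720428 (7848 bp, score 55.15) and from 9498433 to 9506162 (7730 bp, score 120.83). The widest 249 peaks of X, of at least 1850 bp, made up 34.4% of the length covered on X. A like proportion of peaks made up 34.7% of it on 2L, 33.7% on 3L and 32.1% on 3R.

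Score rose with width on X as on the other arms. Spearman's rho across the 2490 peaks was 0.77, and it was 0.78 on 2L, 0.75 on 3L and 0.78 on 3R. Both values come from the same peak call, so the relation is a description. With the peaks of X sorted by score into 4 equal groups, the median width was 285, 442.5, 738 and 1472 bp from the lowest to the highest. The highest group on X was wider than on the other arms, at 1472 bp (1382 to 1555) against 1280 bp on 2L (1209 to 1381), 1098.5 bp on 3L (1018 to 1195) and 1300 bp on 3R (1236 to 1350). Groups were formed within each arm and so differ in score. The highest began at 25.66 on X, 25.88 on 2L, 22.83 on 3L and 23.64 on 3R.

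At like width, the median score of X was close to those of 3L and 3R. Among peaks over 300 and up to 500 bp, median scores were 13.0 on X and on 2L, 12.8 on 3L and 12.7 on 3R. Among peaks over 500 and up to 1000 bp, the median was 18.3 on X (17.4 to 18.8), 19.3 on 2L (18.3 to 20.04), 18.8 on 3L and 17.7 on 3R. Over 1000 and up to 2000 bp it was 26.7 on X (25.9 to 27.9) and 31.7 on 2L (29.1 to 35.1), with 25.9 on 3L and 26.5 on 3R. Over 2000 and up to 5000 bp it was 37.5 on X (34.9 to 41.0) and 47.9 on 2L (44.3 to 54.8), with 38.5 on 3L and 36.6 on 3R. Between 1000 and 5000 bp, 2L scored above X without overlap of the intervals. The median of X was slightly above that of 3R in each of these classes. Over 5000 bp the medians were 55.2 on X (23 peaks), 61.5 on 2L, 55.4 on 3L and 50.5 on 3R, from 5 to 8 peaks per arm, and the highest scores were 466.32, 105.37, 188.24 and 109.

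Peaks on X were spaced much as on 3R. The next midpoint lay a median of 1844 bp away (1762 to 1939) on X, 1753 bp on 3R (1686 to 1825), 1968 bp on 2L (1872 to 2070) and 1986 bp on 3L (1850 to 2114). For 78.7% of X peaks (77.1 to 80.3) the next lay within 5 kb. The shares were 78.8% on 3R (77.4 to 80.2), 76.4% on 2L (74.5 to 78.2) and 73.6% on 3L (71.6 to 75.5). The intervals of X and 3R lay almost on each other, and X lay above 3L without overlap. Within 1 kb X was lowest, with 22.8% (21.1 to 24.5) against 25.4% on 3R (23.9 to 26.9), and the intervals of these arms overlapped.

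The upper end of the distances told the arms apart more than the lower end. The 10th percentile of the distance was between 644 and 656 bp on all 4 arms, whereas the 90th percentile was 15168 bp on X, 16951 bp on 3R, 19644 bp on 2L and 24711 bp on 3L. Measured between facing edges, the median gap was 767 bp on X (702 to 842), 770 bp on 3R (713 to 824), 921 bp on 2L (828 to 1017) and 1028 bp on 3L (926 to 1121). No gap on any of the 4 arms was shorter than 50 bp, and on X 277 gaps (11.1%) were shorter than 100 bp. What joining of nearby peaks the authors' caller had already done is not stated.

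**Figure D4:**
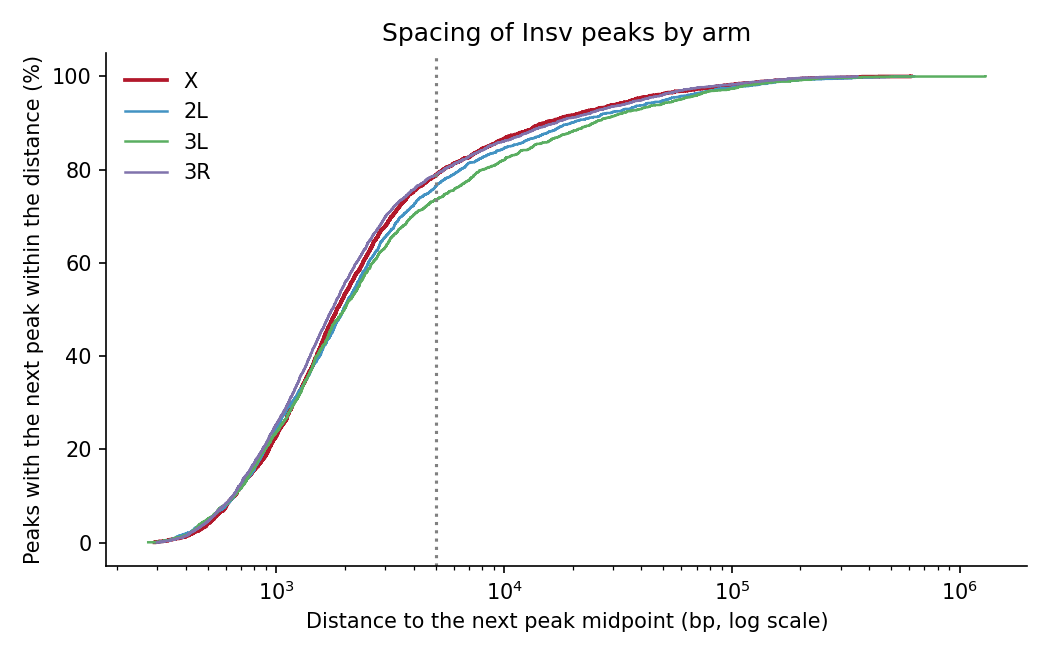
Share of peaks (y axis, percent) whose next midpoint lies within the distance on the x axis (bp, log scale), for X, 2L, 3L and 3R, with a dotted line at 5 kb. The curves of X and 3R nearly coincide and reach 78.7% and 78.8% at 5 kb, and the curve of 3L is the lowest there, at 73.6%.

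Joining X peaks across gaps of up to 5 kb gave 471 regions. Of these, 76 held at least 10 peaks and together 1304 peaks, or 52.4% of X (50.4 to 54.3), and 22 held at least 20 peaks, with 597 peaks or 24.0% (22.3 to 25.7). The share in regions of 10 or more was 50.5% on 2L (48.3 to 52.7), 39.9% on 3L (37.8 to 42.1) and 50.3% on 3R (48.6 to 52.0). X thus resembled 2L and 3R, and lay above 3L. Without its densest 1 Mb bin, X was at 50.4%, with the other arms left whole. When regions were formed from the strongest 50% of all peaks, 20.2% of the X peaks lay in regions of 10 or more, against 21.3% on 2L, 3L and 3R pooled. In the bin from 19 to 20 Mb, 142 of 184 peaks belonged to such regions, while in the bin from 3 to 4 Mb 3 of 39 did.

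The 5 regions with the most peaks on X were also its 5 longest. The first, from 19492197 to 19612674, held 60 peaks with a median score of 18.4 and 1 score above 100. The second, from 6696850 to 6765137, held 40 peaks and is that of the strongest peak. The third, from 5554708 to 5619986, held 38 peaks over 65.3 kb, and only its widest peak, with a score of 54.32, exceeded 50. The fourth, from 15590698 to 15648212, held 33 peaks, which covered 64.3% of its 57.5 kb, with a highest score of 77.65. The fifth, from 6137703 to 6195821, held 29 peaks covering 63.6% of it and is that of the widest peak. The median gap inside these regions ran from 336 to 582 bp. A large number of peaks in a region thus went with a very high score in 2 of the 5 regions, and in the others no score exceeded 107.19.

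Peaks in large regions on X were wider than those in small ones. In regions of 20 or more peaks the median width was 623 bp (566 to 672) and the median score 17.7 (16.3 to 18.3). In regions of 10 to 19 peaks the values were 662 bp (599 to 738) and 17.4 (16.6 to 18.8). In regions of 2 to 4 they were 454.5 bp (420 to 495) and 14.0 (13.2 to 15.3). Within regions of 10 or more, the 152 outermost peaks of X had a median score of 14.7 (13.5 to 16.9) and the 1152 inner ones 17.97 (17.1 to 18.5). The inner peaks also had the higher median on 2L, at 17.8 (17.1 to 18.8) against 15.5 (13.3 to 17.5), and on 3L, at 17.4 (16.2 to 18.3) against 15.3 (13.0 to 19.1). On 3R the medians were 16.3 and 16.2. Whether the arms differ in this respect was not tested. Neighbouring peaks on X had weakly related scores, with a Spearman's rho of 0.16 across 2019 pairs within 5 kb and 0.097 across 470 pairs further apart.

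Isolated peaks, with no other peak within 5 kb of either edge, were few on X. There were 151, or 6.06% of X peaks (5.16 to 7.07), compared with 6.10% on 3R (5.31 to 6.98), 8.61% on 2L (7.43 to 9.91) and 10.1% on 3L (8.79 to 11.5). Their median score on X, 16.3 (14.0 to 19.1), equalled the median of all X peaks, and they were narrower, at 423 bp (365 to 490). The medians of isolated peaks were 15.9 on 2L (14.1 to 17.1), 14.7 on 3L (13.5 to 16.8) and 17.1 on 3R (16.3 to 19.4), and the intervals overlapped.

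Among isolated peaks, the share with a high score was larger on X than on 2L, 3L and 3R. A score above 50 was found for 28 of the 151, or 18.5% (12.7 to 25.7). On 2L it was found for 14 of 176, or 7.95% (4.42 to 13.0), on 3L for 11 of 203, or 5.42% (2.74 to 9.49), and on 3R for 13 of 201, or 6.47% (3.49 to 10.8). The interval of X did not overlap those of 3L and 3R and just overlapped that of 2L. The 90th percentile of the score was 66.1 on X and between 38.9 and 44.2 on the other arms. This comparison was chosen after the scores had been seen, and the difference was not tested.

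The 28 strong isolated peaks of X lay in 13 of the 1 Mb bins. Their median width was 954.5 bp, and 16 of them were no wider than 1000 bp. The 5 strongest were those of ranks 2, 9 and 13 on X, followed by the peak from 9587730 to 9588350, with a score of 126.08 over only 621 bp, and the peak from 8385328 to 8386921, with a score of 117.36 over 1594 bp. The peak at 9587730 had 84137 bp without a peak behind it, and the one at 8385328 was free for 26790 and 62783 bp on its sides. Scores above 100 at isolated sites numbered 7 on X, or 0.281% of all its peaks (0.113 to 0.578). They numbered 2 on 2L (0.0978%, 0.0118 to 0.353), 3 on 3L (0.149%, 0.0307 to 0.434) and 2 on 3R (0.0607%, 0.00736 to 0.219). The interval of X overlapped that of each other arm.

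**Figure D5:**
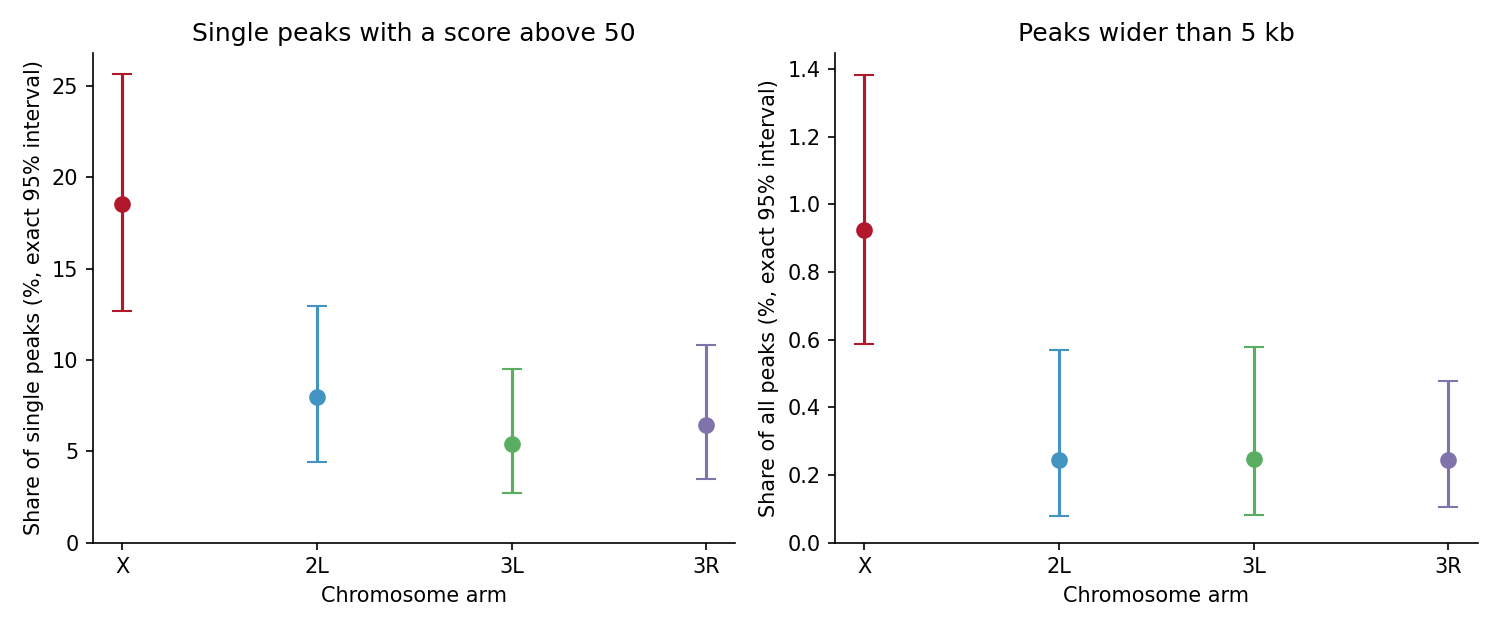
Share of isolated (single) peaks with a score above 50 (left) and share of all peaks wider than 5 kb (right), in percent, for X, 2L, 3L and 3R. Points are shares and bars are exact 95% intervals over peaks. X is at 18.5% on the left and 0.924% on the right, above the other 3 arms in both.

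Narrow strong peaks, of at most 1000 bp and with a score above 50, numbered 40 on X, or 1.61% (1.15 to 2.18), against 1.52% on 2L, 1.83% on 3L and 1.40% on 3R. Peaks wider than 2000 bp outside regions of 10 or more numbered 79 on X, or 3.17% (2.52 to 3.94). Their shares were 2.15% on 2L (1.57 to 2.88), 1.93% on 3L (1.38 to 2.63) and 2.28% on 3R (1.80 to 2.85), lower than on X, each with an interval that overlaps that of X.

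After joining peaks within 5 kb, X had 21.2 regions per Mb, against 19.6 on 2L, 20.8 on 3L and 22.8 on 3R. The density of regions on X was thus within the range of the other arms. The median length of a region was 3641 bp on X, 2632 bp on 2L, 2032 bp on 3L and 3449 bp on 3R. X and 3R had the higher median lengths, while the number of regions per Mb varied little. The difference of X from 2L, 3L and 3R pooled (2827 bp) was 814 bp. Its half-interval was 866 bp, so the difference in length is not firm.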

How the data were processed

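Insv ChIP-seq peaks of Kc167 cells (3 ChIP and 3 input samples) were taken from the 1 deposited list. Per the file headers, MACS made the peaks, on FlyBase release 5. The submitters' processing notes name BWA, MACS2 and CASAVA 1.7.0.2 and 1.7.0.3. Peak threshold, duplicate handling and combination of replicates: not given in the sources used here. The score deposited by the authors has no stated scale and was used to rank and describe peaks. On X it has 614 different values. Start and end are used as deposited, 1-based.

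Position was the midpoint. Spans ran from first to last peak, and 1 Mb bins and 100 kb windows were counted from coordinate 0, complete ones only. Peaks with facing edges within 5 kb formed regions. No test between arms was made, since no value belongs to a single library. The functions were tested on simulated lists. Named were the 15 strongest, 5 widest and 5 strongest isolated peaks, the 5 regions with most peaks and the 5 longest, all bins, the 5 fullest windows and the 5 longest gaps. Members, lists and cuts were chosen with earlier results of these data known. Software was Python 3.11.15 with pandas 2.3.3, scipy 1.17.1, numpy 2.4.6 and, for plots, matplotlib 3.10.9.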

Additional observations from a re-analysis of the deposited data

How the results depend on the processing

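Values are X against 2L, 3L and 3R pooled unless said otherwise, and 86 of 91 recomputed values kept their direction. Direction was taken from the sign alone, also where the half-interval was larger than the difference. The 86 include 3 values of the relation of score and width and 2 of the spread of bin counts. Those describe X alone and had no direction to reverse. The peak density ratio, 1.14, was 1.23 among the strongest 50%, 1.07 with peaks joined within 1 kb, 1.23 without the end bins, 1.25 against 2L and 1.35 against 3L. It passed below 1 with joining within 5 kb (0.999948) and against 3R (0.95). The difference in covered share, 2.32 percentage points, was 3.28 with joining within 5 kb, 3.16 without the end bins, 2.85, 3.91 and 0.483 against 2L, 3L and 3R, and 1.82 without the densest bin of X. The difference in median score, 0.80, was 4.55 and 2.33 with joining within 5 and 1 kb. Joining gave each region the highest score of its peaks, so these values describe the strongest peak of a region and not the typical peak. The same holds wherever scores of joined peaks are used below. The difference in median width, 51 bp, was 87 among the strongest 50%, and 814 and 292.5 with joining within 5 and 1 kb. Against 3L and 3R it was 97 and 17. The differences of 814 and 17 had larger half-intervals, of 866 and 35.2. The difference in the share with the next peak within 5 kb, 2.02 points, was 5.14 against 3L. It turned to -1.26 with joining within 1 kb and to -0.081 against 3R, with half-intervals of 3.28 and 2.15. The difference in the share in regions of 10 or more peaks, 4.86 points, was 1.97 with joining within 1 kb. Against 2L, 3L and 3R it was 1.86, 12.5 and 2.08, and for 2L and 3R the half-intervals were larger, at 2.95 and 2.62. It turned to -1.05 among the strongest 50%, with a half-interval of 2.58. The difference in the share above a score of 100, 0.602 points, was 3.17 and 1.46 with joining within 5 and 1 kb. Without the strongest 10 peaks of X it was 0.205, with a half-interval of 0.484. Of the comparisons chosen after seeing the data, that of strong isolated peaks, 12.0 points, was 3.43 at a score above 100, and that of peaks wider than 5 kb, 0.679 points, was 3.29 with joining within 1 kb and 1.16 at 3000 bp. Both kept their direction in all 9 settings tried for each. These settings reuse the peaks from which the comparisons were chosen, so they give no separate support. For strong isolated peaks at a score above 100, the half-interval, 3.85 points, exceeded the difference of 3.43. The relation of score and width on X, 0.77, was 0.55 among the strongest 50%, 0.75 outside regions of 10 or more and 0.70 with joining within 1 kb. For these changes the cause was not tested. The ratio of variance to mean of bin counts, 15.5, was 13.9 with 500 kb and 15.0 with 2 Mb bins. Joining within 5 kb gives no value for the spacing within 5 kb, and planned work on sequence was not run for want of a release 5 genome. No paired analysis was possible because no value belongs to 1 library. Which weak sites were called depends on a sequencing depth that is unknown.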
